A study of Schizosaccharomyces pombe with 4 samples.

Results

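The genes described here are the dispersed 5S ribosomal RNA genes of fission yeast, Schizosaccharomyces pombe. They were chosen as the annotated SPRRNA genes with a 5S product in the ASM294v3 assembly. Of 36 such genes 32 were kept, 8 on chromosome I, 16 on chromosome II and 8 on chromosome III. The other 4, SPRRNA.17, SPRRNA.18, SPRRNA.19 and SPRRNA.20, lie on chromosome I beyond 3700000 bp, where the probe coordinates did not match the assembly, and were not analysed here. Each gene was measured in a window that ran 250 bp past it on both sides, with a median window length of 657 bp.

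The study mapped Cdk11, the partner kinase of an L-type cyclin in transcription by RNA polymerase II, in work on the Mediator coactivator complex. All samples were wild-type cells whose Cdk11 carried an HA tag, grown in YES medium at 32C to mid-log phase and cross-linked for 10 min in 3% formaldehyde. Chromatin of about 500 bp was precipitated with the anti-HA antibody clone 16B12 (HA.11), amplified by ligation-mediated PCR and hybridised against input DNA on 4 Agilent 2-colour arrays. Replicates 1 and 3 came from one immunoprecipitation (IP 1) and replicates 2 and 4 from another (IP 2), so n = 2. Duplicate arrays of one IP were no more alike than arrays of different IPs, with r over probes of 0.21 for replicates 1 and 3 and 0.27 for replicates 2 and 4, against 0.17 to 0.28 for the other pairs. No untagged or mock precipitate and no dye swap were analysed here, so binding of DNA to the antibody or beads and dye bias cannot be told apart from Cdk11. The labels call the IPs biological replicates without naming separate cultures, so the p-values cover no more than the spread between these 2 samples. In the limma fit used below, each window's spread was also drawn toward that of all features (7.44 prior degrees of freedom).

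5S rRNA is a small RNA of the large ribosomal subunit and is made by RNA polymerase III, not by polymerase II. Its promoter lies inside the gene: TFIIIA binds an internal control region, TFIIIC joins it, and TFIIIB then brings in the polymerase, which stops at a run of T. In fission yeast the 5S genes are scattered singly between other genes instead of forming one array with the other rRNA genes, and many genes of polymerase III in this yeast also carry a TATA element a short way upstream.

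The cores of most of these genes are alike in sequence. The transcribed core of 119 bases was identical in 20 of the 32 genes, differed by 1 to 3 substitutions in 10, and was divergent in SPRRNA.41 (20 edits) and SPRRNA.54 (28 edits). Capitals mark a base that differs from the common core in the variant of SPRRNA.04, which is C20T counted from 1 at the core's 5′ end. The sequences are read from RefSeq's ASM294v3 assembly, 5′ to 3′ on the strand of the gene. The common core, the variant and the divergent copy are the following.
SPRRNA.39 core (II:2032410-2032528, plus strand): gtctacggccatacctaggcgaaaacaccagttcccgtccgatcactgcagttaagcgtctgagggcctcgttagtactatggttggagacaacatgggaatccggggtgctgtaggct
SPRRNA.04 core (III:1474259-1474377, minus strand): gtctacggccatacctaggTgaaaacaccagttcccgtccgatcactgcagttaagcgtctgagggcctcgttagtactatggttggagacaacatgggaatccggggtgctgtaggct
SPRRNA.41 core (II:3171572-3171680, minus strand): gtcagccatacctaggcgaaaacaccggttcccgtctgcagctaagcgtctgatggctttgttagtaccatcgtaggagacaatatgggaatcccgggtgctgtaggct

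Few probes lie on this repeated sequence. Of the 73 probes with midpoints in the windows, 8 overlapped a core at all, and for genes with at most 3 substitutions the largest overlap was 13 bases. The single probe centred on a core belonged to the divergent SPRRNA.54. Windows held 1 probe with a value in 2 genes, 2 probes in 22 and 3 probes in 8. A value for a 5S gene is therefore a value for its flanks.

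The 50 bp before the core differ widely between genes, and those of the 7 genes with the lowest values and the 2 with the highest are shown here with TATAAA or TATATA in capitals.
SPRRNA.39 (II:2032360-2032409, plus strand): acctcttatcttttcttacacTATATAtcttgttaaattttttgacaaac
SPRRNA.26 (III:926092-926141, plus strand): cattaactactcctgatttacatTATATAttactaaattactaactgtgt
SPRRNA.16 (I:3634321-3634370, plus strand): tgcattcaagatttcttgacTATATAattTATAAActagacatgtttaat
SPRRNA.05 (III:1690895-1690944, plus strand): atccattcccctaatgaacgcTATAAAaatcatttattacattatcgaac
SPRRNA.28 (II:464477-464526, plus strand): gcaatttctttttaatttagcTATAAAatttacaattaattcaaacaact
SPRRNA.38 (II:4210500-4210549, minus strand): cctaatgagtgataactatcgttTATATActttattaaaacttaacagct
SPRRNA.29 (II:520253-520302, plus strand): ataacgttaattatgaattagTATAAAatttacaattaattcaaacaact
SPRRNA.04 (III:1474378-1474427, minus strand): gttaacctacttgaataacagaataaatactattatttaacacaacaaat
SPRRNA.31 (II:783209-783258, plus strand): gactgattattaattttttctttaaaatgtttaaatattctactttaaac

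On the strand of the gene, TATAAA or TATATA (the hexamers can overlap) was found in this stretch in 21 of the 32 genes (65.6%), and in 17 of them it began 27 to 31 bp before the core. The share was 45.6% before 171 tRNA genes and 12.7% before 5112 coding genes. With both strands searched it was 68.8% for 5S genes, 46.8% for tRNA genes and 15.6% for coding genes. The genes printed above split more cleanly by hexamer than the rest. SPRRNA.03, SPRRNA.34 and SPRRNA.06, with low means of -0.70, -0.63 and -0.60, lack it on the gene's strand. SPRRNA.15, among the 5 highest at -0.16, has it. A run of at least 4 T followed within 40 bp of the core in 31 of the 32 genes. SPRRNA.28 and SPRRNA.29 shared 35 of their 50 upstream bases, and SPRRNA.03 and SPRRNA.04 shared all 50.

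Values are log2 of the Cy3 over the Cy5 foreground signal, set to 0 at the median probe of each array. The labels put the IP in Cy3 and the input in Cy5, whereas the authors' deposited log ratios run as Cy5 over Cy3, so the direction of enrichment is not settled. A negative value is therefore called higher in Cy5, and with the labels read as written it would be depletion in the IP, with the sign turned enrichment. On this scale the flanks of most 5S genes lay on the Cy5 side. The median of the 32 windows was -0.40 (-0.52 in IP 1 and -0.38 in IP 2), against -0.01 for all 9941 features tested and -0.03 for 3850 coding ORFs. Between their quartiles the 5S windows ran from -0.72 to -0.26, against -0.21 to 0.18 for all features.

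In both IPs 24 of the 32 windows were below 0, which is 75.0% against 31.3% of all features, and 2 were above 0 in both (6.25% against 29.1%). The other 6 had IPs of opposite sign. Of the 30 windows with a value on all 4 arrays, 16 were below 0 on each and 2 were above. The share of all features was not computed for this count. On single arrays the median of the 5S windows was -0.58, -0.56, -0.31 and -0.22 for replicates 1 to 4, so the shift had the same direction on each array and was larger on replicates 1 and 2.

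Tested with limma against 0 over all features, 4 windows were called at an adjusted p under 0.05, all of them higher in Cy5: SPRRNA.39, SPRRNA.26, SPRRNA.16 and SPRRNA.28. That is 12.5% of the 5S windows, against 2.62% of all features and 3.87% of the features with 1 to 3 probes. No window was called higher in Cy3, where 0.161% of all features were called. At an unadjusted p under 0.05, limma gave 15 windows higher in Cy5 and 1 higher in Cy3. The share of all features at that unadjusted threshold was not computed, and the shares above do not apply to it. The count at an adjusted p under 0.05 depended on the arrays. Without replicate 2, 2 windows were called, while the share of all features called higher in Cy5 was 1.86%.

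**Figure D1:**
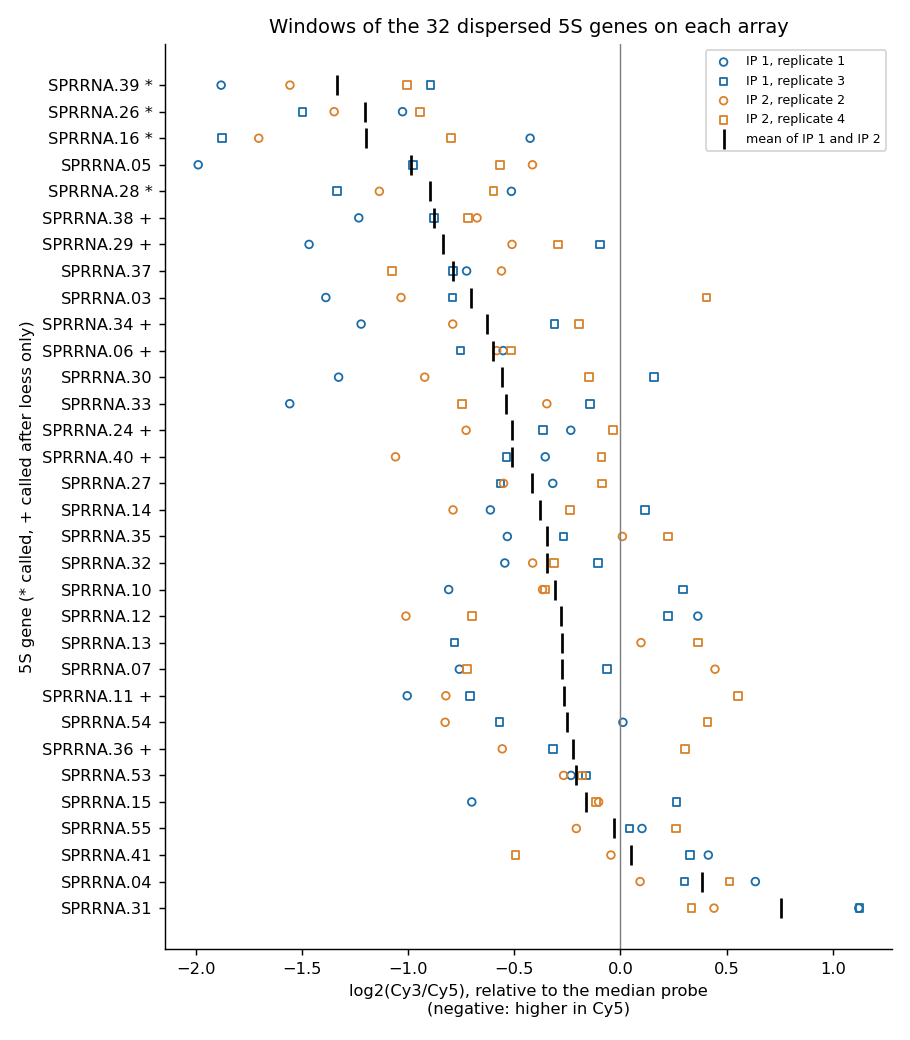
The log2(Cy3/Cy5) of each 5S window on each array, relative to the array's median probe, with open points for arrays, coloured by IP, and a black bar for the mean of both IPs. Genes are ordered by that mean, and 29 of the 32 means lie left of 0. An array's point averages the probes that passed on that array, so where spots were left out the bar can lie off the centre of the points.

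SPRRNA.39, between a tRNA-Asn gene 177 bp upstream and qcr1, a subunit gene of the mitochondrial processing peptidase, 942 bp downstream, had the lowest value. Its window read -1.88, -1.56, -0.89 and -1.005 on replicates 1 to 4, all on the Cy5 side. The foreground signals behind these values were 4075, 3759, 4372 and 4258 in Cy3 and 9472, 7760, 4856 and 6849 in Cy5. The mean was -1.33 ± 0.08 (SD, n = 2 IPs), a ratio of Cy5 to Cy3 that was 2.52-fold that of the median probe (limma adjusted p = 0.00852). This was the one window called in all 19 alternative settings.

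SPRRNA.26 lies 184 bp from a tRNA-Arg gene, with xlf1, a gene of DNA end joining, at 1172 bp. It read -1.03, -1.35, -1.497 and -0.94 on the 4 arrays, a mean of -1.20 ± 0.08 (limma adjusted p = 0.0127). Its upstream and downstream probes were alike, at -1.17 and -1.24. The nearest coding sequence to SPRRNA.16 is noc201, of the Noc complex of ribosome assembly, at 711 bp, and its nearest tRNA gene is 42326 bp away. SPRRNA.16 read -0.43, -1.70, -1.88 and -0.80, a mean of -1.20 ± 0.07 (limma adjusted p = 0.0127). All 4 arrays were on the Cy5 side, but replicate 1 was high, with the upstream probe at 0.63 there and at -1.35, -1.63 and -1.08 on replicates 2 to 4. Without replicate 3 or without replicate 2 the call was lost, with limma adjusted p = 0.205 and 0.063.

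SPRRNA.28 lies 218 bp from a tRNA-His gene and 966 bp from the uncharacterised SPBC428.10. It read -0.51, -1.14, -1.33 and -0.60, with a mean of -0.89 ± 0.04 (limma adjusted p = 0.0453). The small SD between IPs sat beside a wider spread within each, since replicates 1 and 4 were high and replicates 2 and 3 low. Its call was lost in 7 of 19 settings, among them without replicate 2 and without replicate 3 (limma adjusted p = 0.138 and 0.341).

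SPRRNA.05, 707 bp from the transcription factor gene SPCC417.09C, had a lower mean than SPRRNA.28 but was not called. It read -1.99, -0.41, -0.98 and -0.57, a mean of -0.99 ± 0.70 (limma adjusted p = 0.100), with IP 1 at -1.48 and IP 2 at -0.49. SPRRNA.38, between crb2, a DNA damage checkpoint gene, and a tRNA-Asn gene, read -1.23, -0.68, -0.88 and -0.72, all on the Cy5 side (mean -0.88 ± 0.25, limma adjusted p = 0.0606). SPRRNA.29, next to the RecA family gene rlp1, read -1.47, -0.51, -0.10 and -0.29 (mean -0.83 ± 0.61, limma adjusted p = 0.139). From TATAAA to the core its sequence is that of SPRRNA.28, as printed above.

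At the other end, SPRRNA.31 was the one window well above 0. It lies 991 bp from sim3, which encodes a chaperone of the centromeric histone CENP-A. It read 1.12, 0.44, 1.12 and 0.33, all on the Cy3 side and with IP 1 above IP 2, a mean of 0.76 ± 0.52 (limma adjusted p = 0.157). Its upstream probe, which also lies on another annotated non-coding gene, read 1.16 and its downstream probe 0.36. With the downstream probe, which overlaps the annotated 5S gene, left out, the window was called at 1.16 (limma adjusted p = 0.0141). With the upstream probe left out instead, it was at 0.36 and not called (limma adjusted p = 0.646). The core of SPRRNA.31 is the common one.

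SPRRNA.04 was the next highest at 0.39 ± 0.12, from 1 probe, which read 0.64, 0.09, 0.30 and 0.51 (limma adjusted p = 0.394). SPRRNA.03, with the same 50 upstream bases and the same core but for the C20T substitution of SPRRNA.04, read -1.39, -1.03, -0.79 and 0.41 (mean -0.70 ± 0.55, limma adjusted p = 0.195). Before loess these means had opposite signs, and after it both were below 0, at -0.48 for SPRRNA.03 and -0.22 for SPRRNA.04. No probe of either gene lies on the core or on the 50 bases before it, so these values come from sequence farther out. The difference between the 2 genes was not tested. Of the divergent copies, SPRRNA.41, beside the histone chaperone gene pob3, averaged 0.05 ± 0.45 with IPs of opposite sign, and SPRRNA.54, beside zuo1, averaged -0.25 ± 0.06. After loess they were at -0.35 and -0.28, and neither was called on either scale. SPRRNA.55, near the autophagy kinase gene atg1, averaged -0.03 ± 0.08, and SPRRNA.15, near the deadenylation gene pan3, averaged -0.16 ± 0.08; neither was called.

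Loess normalization, which removes the dependence of the log ratio on spot brightness, gave more calls at the 5S genes. The log ratio correlated with brightness at r = -0.63, -0.47, -0.56 and -0.64 over the probes of replicates 1 to 4. After loess 12 of the 32 windows were called higher in Cy5 (37.5%, against 3.81% of all features and 7.21% of features with 1 to 3 probes). None was called higher in Cy3, against 1.32% of all features. At an unadjusted p under 0.05, limma gave 25 higher in Cy5 and 1 higher in Cy3, again without a share of all features at that threshold. All 4 earlier calls were among the 12. The median moved to -0.53, with -0.01 for all features, and 31 windows were below 0 in both IPs (96.9% against 35.8%).

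The 8 windows gained were SPRRNA.29, SPRRNA.38, SPRRNA.40, SPRRNA.11, SPRRNA.24, SPRRNA.34, SPRRNA.06 and SPRRNA.36. They were dim: the median of their brightness, the geometric mean of both channels, was 2759, against 5196 for the 4 windows called before loess and 4514 for the 20 called in neither. SPRRNA.29 became the lowest at -1.45 after loess, a 2.73-fold ratio of Cy5 to Cy3 (limma adjusted p = 0.0176). That window depended on replicate 1: before loess it was at -0.83 with all arrays and at -0.13 without replicate 1 (limma adjusted p = 0.833). It was also at -0.29 with normexp background correction and at -0.33 over probes well above background. SPRRNA.40, a single-probe window 1477 bp from the transporter gene fnx1, was at -0.51 before loess and -1.14 after it (limma adjusted p = 0.00837), but at 0.15 with marked spots kept (limma adjusted p = 0.757). SPRRNA.11, near the calcium transporter gene SPAC24H6.13, was at -0.26 ± 0.91 with IPs of opposite sign before loess and at -0.95 after it (limma adjusted p = 0.0445), and at 0.16 with normexp (limma adjusted p = 0.836). SPRRNA.24, near the splicing factor gene cwf23, was at -0.51 and then -0.93, and SPRRNA.34, near the RNA helicase gene dbp7, at -0.63 and then -0.88. SPRRNA.06, 459 bp from the uncharacterised SPCC417.15, was at -0.60 and then -0.83, and SPRRNA.36, near the threonine ammonia-lyase gene tda1, at -0.22 and then -0.63.

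With the sign kept, 20 windows were farther from 0 after loess and 10 nearer, and 2, SPRRNA.04 and SPRRNA.41, lay on its other side. SPRRNA.26 was at -0.63 after loess (limma adjusted p = 0.0393), and SPRRNA.37 was at -0.79 before loess and -0.22 after it. SPRRNA.31 remained the highest at 0.45 (limma adjusted p = 0.113). SPRRNA.05 was at -0.53 after loess (limma adjusted p = 0.0732).

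**Figure D2:**
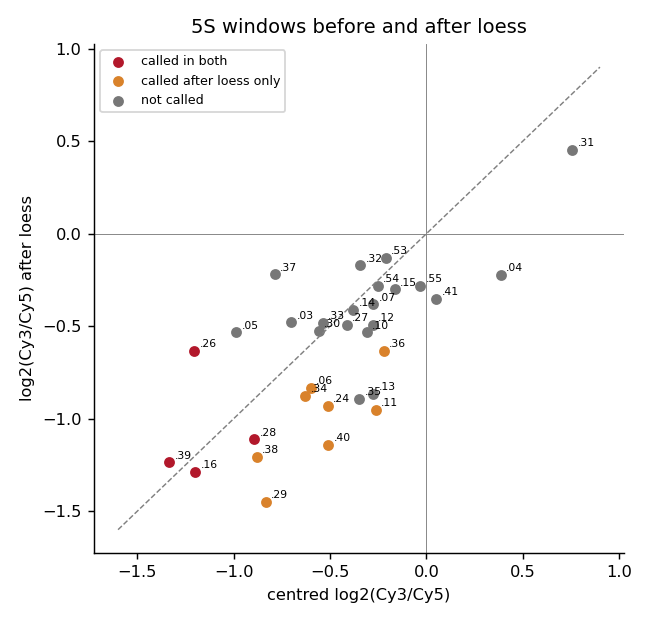
Each 5S window's centred log2(Cy3/Cy5) (x axis) against its value after loess (y axis), with a dashed line of equal values and gene numbers beside the points. The 4 windows called before loess are red, the 8 called after loess only are orange, and all 12 lie below 0 on both axes.

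Before loess, the shift in the mean over probes lay close to the genes. In the 250 bp upstream the mean of 32 probes was -0.53 (-0.62 in IP 1 and -0.45 in IP 2), and in the 250 bp downstream the mean of 32 probes was -0.39 (-0.39 and -0.40). From 250 to 500 bp upstream the mean was -0.39, but -0.65 in IP 1 and -0.13 in IP 2, so that extension rested on one IP. From 250 to 500 bp downstream it was 0.07, and in the remaining bins out to 2000 bp the means lay between -0.12 and 0.15. After loess the upstream means were -0.69 within 250 bp, -0.53 from 250 to 500 bp and -0.27 from 500 to 750 bp. The first 2 bins downstream were at -0.59 and -0.08. On that scale all probes outside ORFs averaged -0.17. Upstream of tRNA genes the means after loess were -0.23 from 250 to 500 bp and -0.21 from 500 to 750 bp. Before loess, 19 of the 30 genes with values on both sides were lower upstream than downstream. The 36 upstream probes then averaged -0.55 against -0.38 for the 33 downstream probes.

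The probes averaged into the windows are described singly here, so their values are not separate evidence. Before loess the 70 window probes with a value in both IPs averaged -0.47, and 68.6% of them were below 0 in both. The share was 29.5% of all 35169 probes and 26.4% of the 12951 probes outside ORFs, which averaged 0.001. The 16 window probes that overlap an annotated 5S gene averaged -0.62 and the 54 that do not averaged -0.42. In some genes the annotated span runs past the core. A contrast with the surroundings was added after the means by distance had been seen, and it carries no test. Set against its own surroundings from 250 to 1000 bp away, a 5S window was lower by a median of 0.29 on the log2 scale, and 20 of 32 (62.5%) were lower in both IPs. The same count was 28.2% for genome tiles of the median window length, 55.7% for tRNA genes and 54.9% for other short non-coding RNA genes, so the 5S share was near that of other short RNA genes.

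**Figure D3:**
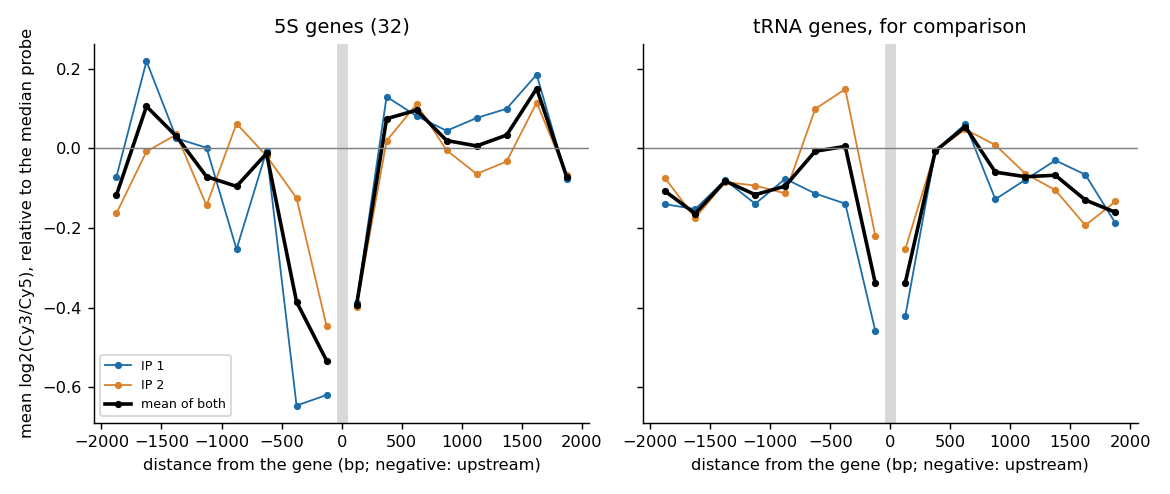
Mean log2(Cy3/Cy5) of probes in bins of 250 bp by distance from the gene, for 5S genes (left) and tRNA genes (right), with lines for IP 1, IP 2 and their mean and a grey bar at the gene. At 5S genes the mean reaches -0.53 just upstream and -0.39 just downstream, and at tRNA genes -0.34 on both sides.

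tRNA genes, the other large class of polymerase III genes, gave a like median of -0.37 over 119 windows, and 63.0% of these were below 0 in both IPs. By limma 3 of them (2.52%) were called higher in Cy5 before loess and 47 (39.5%) after it, beside 4 (12.5%) and 12 (37.5%) of the 5S windows; the differences between the classes were not tested. Single genes of other non-coding RNAs were looked up as well. The gene rrk1, for the RNA of RNase P, averaged -0.85 ± 0.20 (-0.99 in IP 1 and -0.72 in IP 2, limma adjusted p = 0.0631). Which polymerase transcribes rrk1 was not examined here. The U6 gene snu6 averaged 0.21, with IP 1 at -0.29 and IP 2 at 0.70. The signal recognition particle RNA gene srp7 was not analysed here.

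Several of the lowest 5S genes have a tRNA gene next to them. In 5 genes a tRNA gene lay within 250 bp: SPRRNA.06 (151 bp), SPRRNA.39 (177 bp), SPRRNA.26 (184 bp), SPRRNA.28 (218 bp) and SPRRNA.38 (234 bp). All 5 tRNA genes ran in the direction of the 5S gene, and 4 of them were upstream of it. The 5 windows ran from -1.33 to -0.60 with a median of -0.89, against -0.34 for the other 27, which ran from -1.20 to 0.76. The 5 held 3 of the 4 calls, and all 5 were called after loess, against 7 of the other 27. The split was made after the values were seen and carries no test, and the tRNA windows overlap these 5S windows. Of these tRNA windows, the one beside SPRRNA.39 was called at -1.05 (limma adjusted p = 0.0232). The others were not called and read -0.95 beside SPRRNA.26, -0.67 beside SPRRNA.28, -0.50 beside SPRRNA.38 and -0.38 beside SPRRNA.06. Just outside 250 bp, SPRRNA.33, at 308 bp from a tRNA-Thr gene, averaged -0.54, and SPRRNA.36 and SPRRNA.14, at 520 and 534 bp, averaged -0.22 and -0.38. The next, SPRRNA.04 at 607 bp, was above 0, and SPRRNA.16 was among the lowest with no tRNA gene near.

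**Figure D4:**
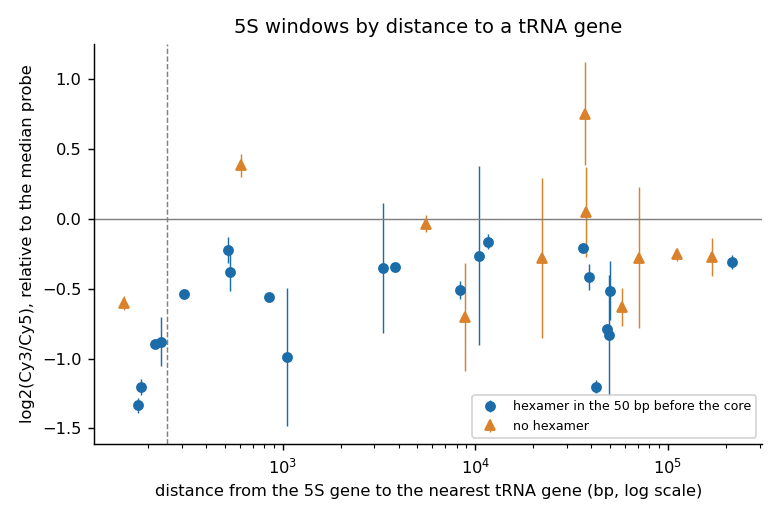
The log2(Cy3/Cy5) of each 5S window against the distance to its nearest tRNA gene (log axis), with a bar that spans both IPs and a dashed line at 250 bp. Circles are genes with a hexamer in the 50 bp before the core and triangles genes without; the 5 windows left of the line and all circles lie below 0.

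The genes also differed by upstream sequence and by core. All 21 windows with TATAAA or TATATA on the gene's strand were below 0, with a median of -0.51 and a range of -1.33 to -0.16, and all 4 calls were among them. The 11 without it had a median of -0.28 and ran from -0.70 to 0.76, with 8 below 0 and no call. After loess the medians were -0.63 and -0.38, with 10 and 2 windows called. The 20 genes with the common core had a median of -0.53 and all 4 calls, the 10 with 1 to 3 substitutions -0.31, and the 2 divergent copies -0.10. These are descriptions of members that overlap in their values, and none was tested.

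The ORFs of the nearest coding genes lay mostly near 0. The 5S genes lay 173 to 1477 bp from the nearest coding sequence, with a median of 708 bp, and 29 had a neighbour with an ORF value. The neighbours' median was 0.03, and 24 of the 29 windows were lower than the ORF beside them. Across these 29 pairs the window and ORF values correlated at Pearson's r = 0.19 and Spearman's rho = 0.15, as a description of pairs on the same 4 arrays. For the 4 called windows the neighbours read -0.26 (qcr1), -0.12 (xlf1), -0.21 (noc201) and 0.17 (SPBC428.10), with limma adjusted p from 0.576 to 0.855. The exception was sam1, the S-adenosylmethionine synthetase gene, whose ORF was called at -1.53 (-1.57 in IP 1 and -1.49 in IP 2, limma adjusted p = 0.00465), where 2.91% of coding ORFs were called higher in Cy5. Its 5S neighbour SPRRNA.37, 753 bp away, read -0.72, -0.56, -0.79 and -1.08 and missed the threshold (mean -0.79 ± 0.04, limma adjusted p = 0.0766).

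**Figure D5:**
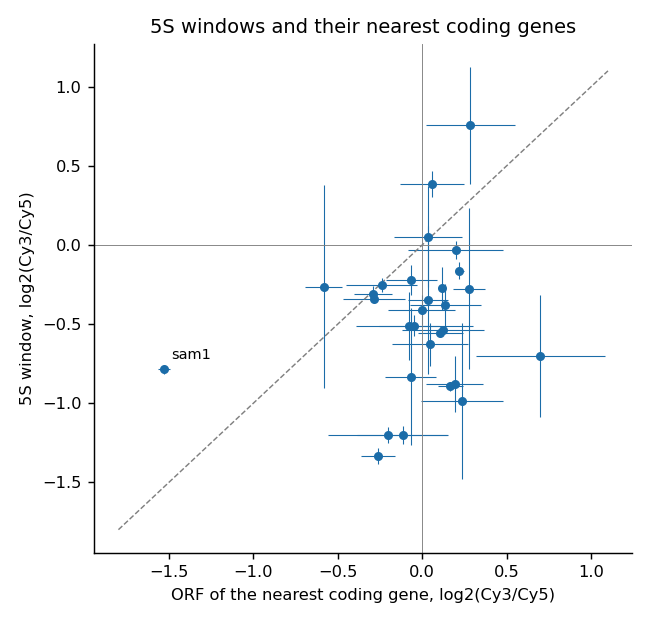
The log2(Cy3/Cy5) of 29 5S windows (y axis) against the ORF of the nearest coding gene (x axis), with bars that span both IPs and a dashed line of equal values. The ORFs centre near 0 with sam1 alone at -1.53, and 24 windows lie below the line.

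The coding genes of 5S transcription and of the 5S particle were looked up in the same fit. Of 37 names listed, 31 were in the annotation and 24 had an ORF value; sfc2, which encodes TFIIIA, was among 4 on unmatched coordinates and was not analysed here. The 2 members called were both ribosomal protein genes of the 5S particle, which holds 5S rRNA with Rpl5 and Rpl11. rpl501 read -2.02, -1.48, -1.22 and -0.83 (mean -1.39 ± 0.33, limma adjusted p = 0.0100), and rpl502 read -1.25, -1.08, -1.503 and -1.56 (mean -1.35 ± 0.04, limma adjusted p = 0.00829), both on the Cy5 side on all arrays. After loess rpl501 was at -0.51 and lost its call (limma adjusted p = 0.0657), and rpl502 was at -0.66 (limma adjusted p = 0.0393). They are paralogs with 2 probes each, and cross-hybridisation between them was not tested. The count of 2 in 24 is set against 2.91% of coding ORFs. The Rpl11 genes rpl1101 and rpl1102 averaged -0.92 ± 0.44 and -0.79 ± 0.38, neither called before loess, and the assembly factor gene rrs1 averaged -0.10.

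The genes of the transcription machinery lay mostly near the median probe. The 10 polymerase III subunit genes with a value had a median of 0.08 and ran from -0.57 for rpc53 to 0.42 for rpc11, the highest of the list (limma adjusted p = 0.358). The 5 TFIIIC genes ran from -0.12 to 0.28, and the TFIIIB genes brf1 and bdp1 averaged -0.43 ± 0.52 and 0.15 ± 0.11. None of these, nor maf1, the repressor of polymerase III, at 0.06, was called. The La protein gene sla1, whose product binds the ends of polymerase III transcripts, averaged -0.51 ± 0.45 and was not called before loess. After loess 3 members were called higher in Cy5, rpl502, rpl1101 (-0.61, limma adjusted p = 0.0457) and sla1 (-0.74, limma adjusted p = 0.0449), where 2.00% of coding ORFs were called, and 1, rpc11, higher in Cy3, where 1.12% were.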

How the data were processed

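The deposited scanner files hold the mean foreground intensity of both channels and, per the file headers, the percent of pixels above background and the squared pixel correlation as a fraction. The deposited value table holds log2 ratios that followed log2(Cy5/Cy3) of these signals after loess (r of at least 0.996); the aligner, build and normalization are not given in the sources used here. Control spots and spots marked as poor were left out, saturated ones with a squared pixel correlation over 0.3 kept; 16.3, 5.28, 8.05 and 1.00% of 42707 probes were removed from replicates 1 to 4, and 23 of the 292 spots in 5S windows. Median signals were 5371, 5097, 6341 and 6028 in Cy3 and 2889, 3522, 3551 and 4862 in Cy5. The number of arrays limits the precision.

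Probe coordinates were checked against ASM294v3 in windows of 100000 bp, of which 107 of 126 matched. Probes were assigned by midpoint, and duplicate arrays were averaged per probe. ORFs with at least 2 probes and all non-coding genes with 250 bp on both sides (9941 features in all) were tested with limma 3.58.1 (lmFit, eBayes, R 4.3.3), two-sided against 0, with Benjamini-Hochberg adjustment over all features. The fit was also run on simulated data with known shifts, drawn with the same spread for all features. The design had assumed Agilent's processed signals; the deposited format has none, and the foreground means were used.

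The members and lists were chosen with earlier results of these data known. Named are every 5S gene called before or after loess, the 5 lowest and the 5 highest, and of the coding list the called members, sfc2 and the lowest and highest of the others. SPRRNA.03, SPRRNA.33, SPRRNA.37, SPRRNA.14, SPRRNA.54 and the further genes of the list were named after their values were seen.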

Additional observations from a re-analysis of the deposited data

How the results depend on the processing

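Against 4 windows higher in Cy5 (2.62% of all features), loess gave 12 (3.81%), the authors' value table with its sign turned 18 (6.58%), centring on the mode 9 (5.26%), no filter on marked spots 8 (4.84%), coding genes extended by 250 bp on both sides 7 (3.55%), and all 4 arrays with the immunoprecipitation as a random block 8 (4.5%, consensus correlation -0.197). Flanks of 100 bp gave 2 (1.18%), and leaving out one array gave 2 to 5 (1.86 to 2.71%). Windows higher in Cy3 numbered 1, SPRRNA.31, without probes that overlap a 5S gene and with the random block, and 0 in the other settings, leave-one-out included. In those 2 settings 18 of 9940 and 103 of 9941 features were called higher in Cy3. The median of -0.397 was -0.528 after loess, -0.515 in the value table, -0.536 with mode centring (where all features moved to -0.147), -0.538 over probes well above background, -0.652 with 100 bp flanks, -0.298 with 500 bp flanks, -0.511 without probes on another non-coding gene, and -0.524 to -0.303 without one array. Coding genes of the 5S list called higher in Cy5 numbered 4 in the value table, with mode centring, without the spot filter and with the random block, against 2, in settings where 4.5 to 6.58% of all features were called, and 1 was called higher in Cy3 after loess and in the value table; leaving out an array gave 2 and 0 throughout. SPRRNA.39 was called in 19 of 19 settings, SPRRNA.26 in 18, SPRRNA.16 in 15 and SPRRNA.28 in 12. Of the 18 named windows 6, none called before loess, lay above 0 in some settings and below it in others: SPRRNA.40, SPRRNA.11, SPRRNA.15, SPRRNA.55, SPRRNA.41 and SPRRNA.04. The causes were not tested. No paired analysis was possible because the arrays form 1 group. With 1 to 3 probes a window and 2 immunoprecipitations, small shifts were not detectable.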
